A study of Sus scrofa with 24 samples.

Results

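Circular RNAs (circRNAs) from genes that regulate small GTPases were followed in the pig spleen between birth and early adulthood. Of 3000 circRNAs counted, 82 came from 46 such host genes. A circRNA was taken when its host gene symbol began with ARHGAP, ARHGEF, DOCK, TBC1D, RAPGEF, RASA, RASGRP, RALGAP, SIPA1, TIAM, ARFGEF, ARFGAP, ASAP, AGAP or DENND, leaving out ARHGAP15 and DOCK2, whose 2 circRNAs were not used. The rule used names only and no measured value, but it was chosen with earlier results of these data known. The host was the gene of the RefSeq annotation of the pig genome Sscrofa11.1 that had, on the same strand, an exon end within 1 base of each end of the back-splice, and 2848 of the 3000 circRNAs had one.

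The samples were spleens of healthy Meishan pigs, a Chinese breed, at 8 ages, named by the day of life: 1d and 7d, 14d and 21d, 28d and 35d, and then 120d and 180d. Each stage had 3 pigs with 1 library per pig, and each pig was sampled at 1 stage only, so the 24 libraries are 24 animals. The labels name no treatment and no genetic change. The study's methods do not give the sex of the pigs, so its part in levels from the X chromosome was not tested. Each value is a number of reads that cross one back-splice junction, so the length of a circle does not enter it.

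Small GTPases such as those of the Ras, Rab, Rap, Ral and Arf families are molecular switches, active when bound to GTP and inactive when bound to GDP. Guanine nucleotide exchange factors (GEFs) load them with GTP and GTPase-activating proteins (GAPs) make them hydrolyse it. In blood cells Rac and Cdc42 shape the actin skeleton during migration, Rab and Arf members direct membrane traffic, and Ras and Rap members pass on signals from antigen receptors and integrins. A circRNA forms when the end of an exon is joined back to the start of the same or an earlier exon, and its back-splice junction is a sequence that the linear mRNA lacks.

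The junctions of the circRNAs that the results turn on are given here, since the junction is what was counted. Each run holds the last 15 bases of the circle in lower case and, in capitals, the 15 bases that follow the join, 5′ to 3′ on the strand of the host gene, read from the RefSeq genome Sscrofa11.1.
RASA2 circRNA_10431, chr13:82256891-82274534: aattcagaagttcagGTGAAGCGAAAAATT
RASA2 circRNA_10432, chr13:82256891-82285635: gcagcttgttgtacaGTGAAGCGAAAAATT
DENND1B circRNA_04854, chr10:20438111-20481282: gtggcttttgtggagAGAGTGAAAAATAAA
DENND1B circRNA_04855, chr10:20438111-20487072: gtggcttttgtggagTGCCCCCATGCCGTA
DENND1B circRNA_04856, chr10:20438111-20492105: gtggcttttgtggagTTGACTGCCTGTGTC
DENND1B circRNA_04863, chr10:20469603-20492105: ctgagatacaaacccTTGACTGCCTGTGTC
DENND4A circRNA_02640, chr1:163743155-163758473: ctcaataacagtatgTATTTCTCAAACTCT
DENND4A circRNA_02643, chr1:163749389-163758473: acttacagatctgggTATTTCTCAAACTCT
DENND4A circRNA_02607, chr1:163668862-163674120: aaaacattgatatagGTTCTCATCTCCAGC
DENND4A circRNA_02611, chr1:163673701-163674120: ttttgatctaaatagGTTCTCATCTCCAGC
DENND4C circRNA_03334, chr1:203531906-203537078: aaacatgttgtatgtCTATCGGTCCATGAT
DENND5A circRNA_36406, chr9:295808-300977: tgctctactcgcagcCGTTATGCCAGTACA
DENND6A circRNA_09841, chr13:39468507-39468774: gatcggactttaccgGAAAGATATGTGGCA
DENND6A circRNA_09863, chr13:39498591-39503860: gggatagtaatgaagGTTGTCTTGGAGATA
DOCK4 circRNA_19906, chr18:33663765-33673693: ctggctccaatgcagTGAGAGATTTTTCTT
DOCK8 circRNA_03618, chr1:221421683-221424819: aattgtgaaccggaaCCTCAGTTTTATGAC
DOCK10 circRNA_16914, chr15:126467694-126469234: gacaagcaaatgaaaAGACAACTTCAACAA
DOCK10 circRNA_16927, chr15:126525089-126541453: gtcagattatagaagATTCCCTGGATAACT
DOCK11 circRNA_39339, chrX:97116670-97120352: acggttaccatgaagGAAAAGACCAAAGTC
ARHGEF6 circRNA_39508, chrX:111851065-111867418: actcacccagcacagAGAGACCTCTCTCCC
ARHGEF7 circRNA_07095, chr11:77475172-77489240: agctattacaacgtgACGTTTGATGCAAAC
ARHGAP5 circRNA_33638, chr7:67554148-67580251: ttattgaagatacagGAAGATGATCCATAC
ARHGAP26 circRNA_22661, chr2:144609015-144612731: gaaccacttggcaaaACCCCAAAGCGGCTG
TBC1D8 circRNA_23935, chr3:53237773-53238013: ccagatcaccaagagTTAAACTTGTAGTCC
TBC1D8 circRNA_23937, chr3:53270127-53270926: ttcatatccctccagCGAGAACACATGATG
TBC1D14 circRNA_34573, chr8:3860535-3867680: tgaacatcacccacgGAATGTGAAGACAAG
TBC1D23 circRNA_11817, chr13:158683519-158686017: gcggaggatttatggATGCTCCAGAATCCA
RAPGEF5 circRNA_37758, chr9:91146703-91148451: tggcatctgtgacctGAGAAGCTGCGTTGG
ARFGEF1 circRNA_26341, chr4:67516638-67518910: ttacaaataataaagAGGAAATAAAAGCGG
ARFGAP3 circRNA_27657, chr5:6010064-6014815: cagccaacagtgaagTCTTCCTTTTTCCAT
Both RASA2 circles open with the same 15 bases, and the DENND1B circles circRNA_04854, circRNA_04855 and circRNA_04856 close with the same 15 bases. Such circles share an exon end, and the junction alone tells them apart.

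The libraries held between 16273 (replicate 1 of 1d) and 87867 (replicate 1 of 120d) junction reads over the table, and the 1d and 7d libraries were the shallowest, with 16273 to 25283. The 82 circRNAs took between 1.93% and 2.66% of these reads. Counts were scaled by TMM, and a level below is a count divided by the relative effective library size. The table lists no count of 1, so a 0 stands for 0 or 1 read. In 7 libraries (replicate 3 of 21d and replicates 2 and 3 of 35d, 120d and 180d) the share of valid bases in the study's sequencing overview (the valid share) was under 0.96. Only 1 library each of 35d, 120d and 180d is among the other 17, so valid share and late stage can be told apart only in part. Over the 6 libraries of 180d and 1d, the summed levels of host genes that mark other cell types differed as well. T and NK cell genes (CD96, TOX and LEF1, 3 of a list of 44) summed to 66.7 to 71.9 at 180d against 18.1 to 31.9 at 1d. CD96 carried that difference, with a mean level of 42.7 at 180d against 2.60 at 1d. TOX, with 18.4 against 16.0, and LEF1, with 8.25 against 5.74, were not called in the age trend (edgeR, adjusted p = 0.195 and 0.353). The 5 measured B and plasma cell genes of 33 summed to 90.7 to 131.5 at 180d against 37.9 to 54.2 at 1d, where 3 rose with age and BCL11A fell (0.979 at 180d against 5.65 at 1d, slope -0.25, adjusted p = 0.0317). CTSS, 1 of 29 macrophage and granulocyte genes, had levels of 47.0 to 82.7 at 180d against 9.88 to 15.1 at 1d. Erythroid genes (3 of 29) summed to 45.9 to 62.2 at 180d against 128.1 to 163.2 at 1d, and 17 cell cycle genes to 121.7 to 163.9 against 369.2 to 390.2. The 2 stromal genes summed to 10.1 to 18.8 at 180d against 15.9 to 23.1 at 1d. FLT1, with 1.00 against 6.84, and ITGA8, with 13.2 at both stages, were not called (edgeR, adjusted p = 0.0565 and 0.852). At 7d, the other early stage compared, erythroid genes summed to 193.2 to 209.6 and cell cycle genes to 567 to 602.5, both above the 1d ranges. T and NK cell genes summed to 4.79 to 20.5 at 7d, B and plasma cell genes to 20.05 to 68.9 and stromal genes to 0 to 16.0. CTSS had levels of 10.9 to 23.5 at 7d. Defining genes such as CD3E, CD79A, CSF1R and PECAM1 had no circle in the table. The part of these shifts in the results below was not tested, and in bulk spleen fewer cells of a type and less RNA per cell cannot be told apart.

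The 82 circRNAs were unevenly spread over the families. DENND genes gave 21, TBC1D genes 18, ARHGAP genes 16, ARHGEF genes 8 and DOCK genes 6. RAPGEF and RASA genes gave 3 each, with RASAL2 counted under RASA, ARFGAP and ASAP genes 2 each, and TIAM, ARFGEF and RALGAP genes 1 each, while RASGRP, SIPA1 and AGAP had none in the table. DENND1B alone gave 6 circRNAs, and DENND4A, DENND4C, DENND6A and ARHGAP12 gave 4 each. Of the 82, 38 shared 1 or both exon ends with another circRNA of the same gene.

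Most of these circRNAs were scarce. The median of their mean levels was 6.29, against 6.96 for the other 2766 circRNAs with a host, 25 of the 82 had a mean level of at least 10, and 23 had reads in every library. The most abundant was TBC1D8 circRNA_23937, with a mean level of 73.2 over the 24 libraries, followed by RALGAPA1 circRNA_33556 with 60.4 and TBC1D8 circRNA_23932 with 42.2. RALGAPA1 is the catalytic subunit of a GAP for Ral. TBC1D22A circRNA_27612 (35.8), ARHGAP12 circRNA_05275 (32.0), RASA2 circRNA_10431 (31.2) and TBC1D14 circRNA_34573 (31.0) came next. By family, the TBC1D genes (Rab GAPs, with TBC1D23 counted among them) held 31.1% of the junction reads of the 82, the Rab GEFs of the DENND family 17.4% and the ARHGAP genes 16.4%.

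Most of the circles held coding exons only. Their median length was 380 nt, in a range of 164 to 4036 nt, against 434.5 nt for the other circRNAs with a host, and both sets had a median of 3 exons. They began at exon 2 of the transcript in 20.7% against 32.6%, held the start codon in 9.76% against 17.1%, and had a length that is a multiple of 3 in 24.4% against 35.5%. The introns before and after the circle had medians of 10470 and 11220 bases, against 7401 and 6660 bases in the other circRNAs. These shares describe the table and were not tested. The longest circle, ARHGAP5 circRNA_33638 of 4036 nt, holds exons 2 and 3, and the shortest, DENND6A circRNA_09841 of 164 nt, holds exons 16 and 17.

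**Figure D1:**
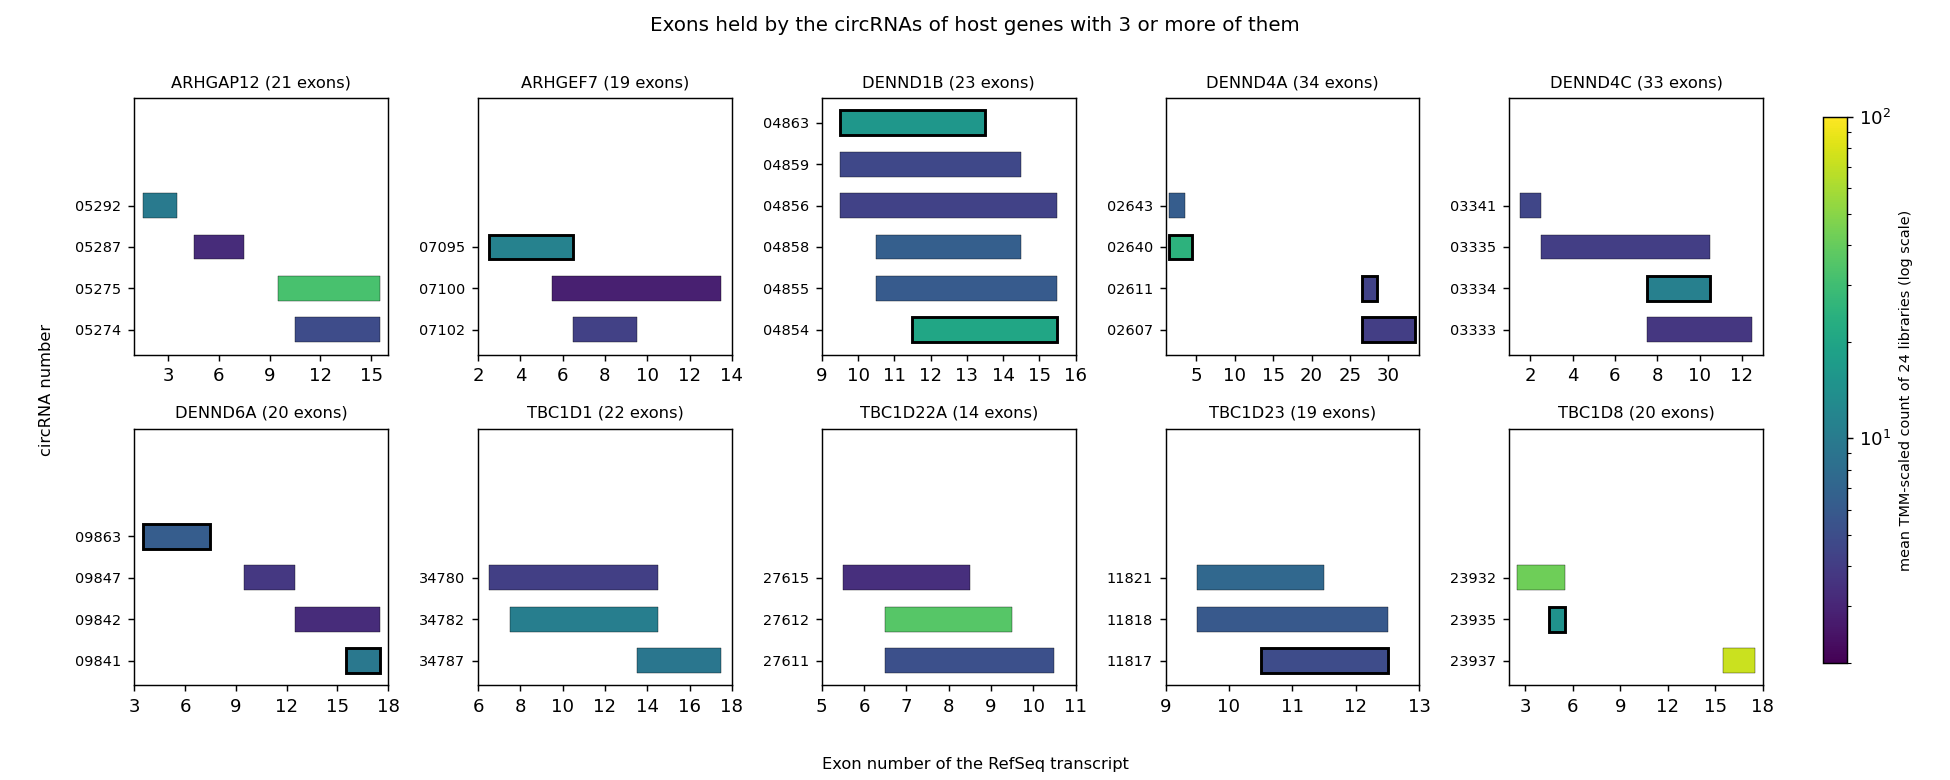
Exon span of each circRNA (horizontal bars, exon number in the host transcript on the x axis) for the 10 host genes with 3 or more circRNAs. Bar colour gives the mean level over 24 libraries on a log scale and a thick border marks circRNAs called in a test; DENND1B circRNAs crowd exons 10 to 15 and TBC1D8 circRNAs sit at exons 3 to 5 and 16 to 17.

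The first question was whether levels moved with age. The age trend, a slope on log2 of age in days fitted by edgeR over all 24 libraries, was called at an adjusted p under 0.05 for 14 of the 82 circRNAs, 12 of which rose and 2 fell. Over all 3000 circRNAs 16.5% were called, 10.7% higher and 5.77% lower, so the share of called circRNAs was close to that of the whole table. The median slope was 0.09 per doubling of age over the 82 and 0.03 over all 3000, and 61 of the 82 slopes were above 0. The risers were RASA2 circRNA_10431, ARHGAP26 circRNA_22661, DOCK11 circRNA_39339, DENND1B circRNA_04854, DOCK4 circRNA_19906, DOCK8 circRNA_03618, TBC1D23 circRNA_11817, DENND4C circRNA_03334, DOCK10 circRNA_16914, TBC1D14 circRNA_34573, ARFGAP3 circRNA_27657 and ARFGEF1 circRNA_26341. The fallers were DENND4A circRNA_02640 and DENND5A circRNA_36406, both of genes of the Rab GEF family.

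The split by direction depended on the scaling. With DESeq2 size factors 11 rose and 3 fell, with the totals over these circRNAs as the depth, 5 circRNAs rose and 4 fell, and with clean reads as the depth 63 rose and none fell. For all 3000 circRNAs the same splits were 276 and 219, 204 and 282, and 1937 and 6. With clean reads the median slope of all 3000 circRNAs was itself 0.25, against 0.03 with TMM, and that of the 82 was 0.31. The directions given below are therefore relative to the other circRNAs of the table.

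**Figure D2:**
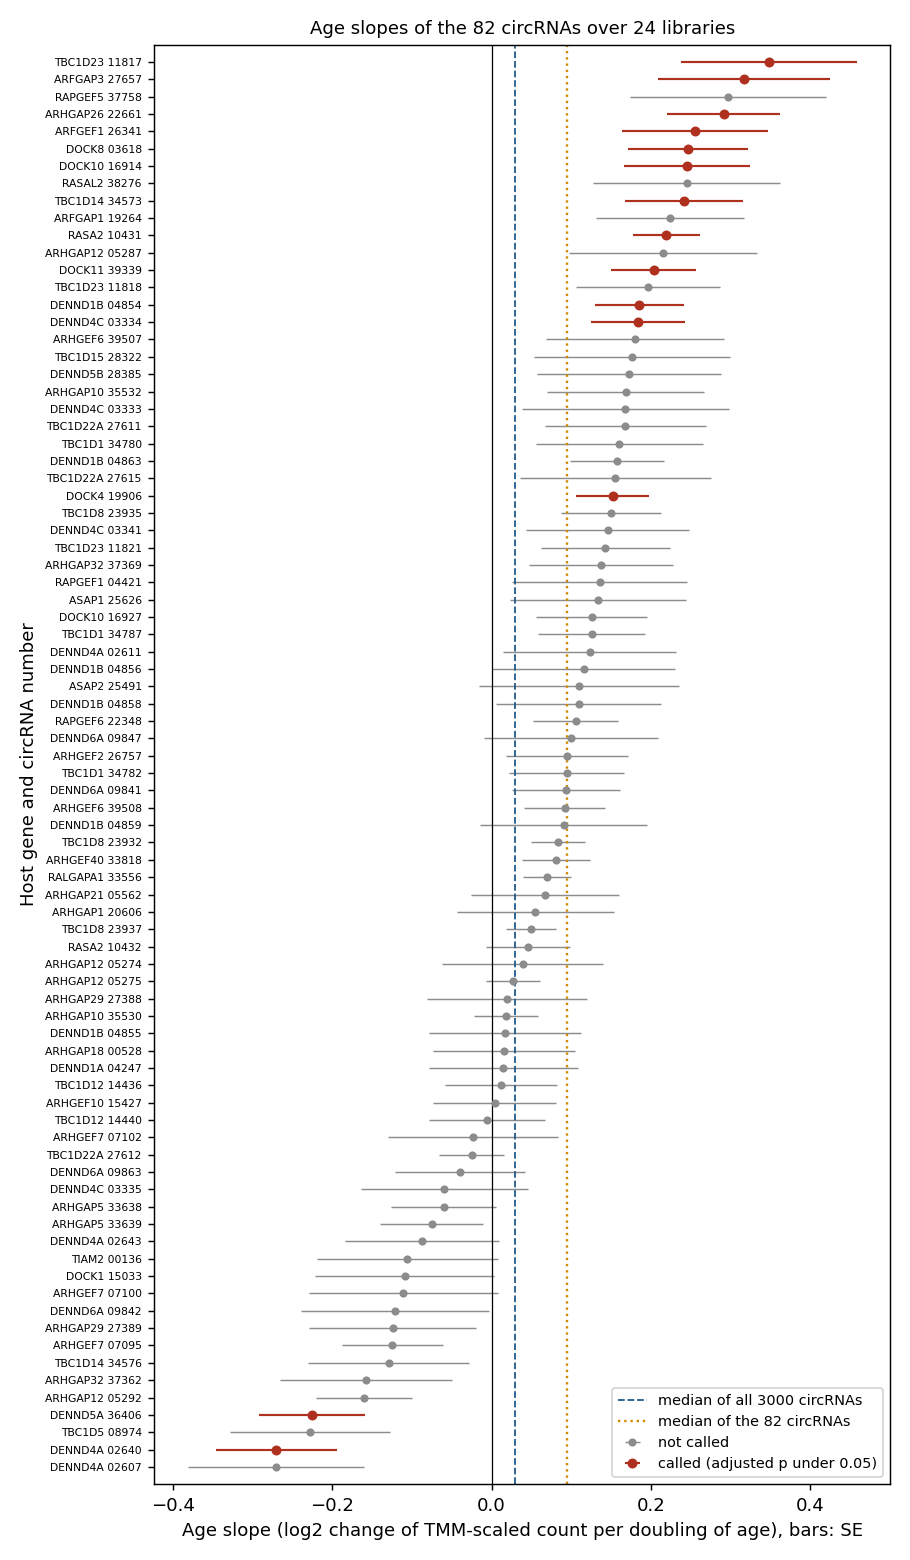
Slope of the age trend (log2 level per log2 age in days, x axis) with its SE for each of the 82 circRNAs, ordered by slope; called circRNAs are red. The median line of the 82 lies at 0.09 and that of all 3000 circRNAs at 0.03.

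Pairs of stages were called where the adjusted p was under 0.05 and the log2 fold change was 1 or more in size. DENND1B circRNA_04854 alone was higher at 21d than at 1d, while 0.933% of all circRNAs were called, 0.900% higher and 0.0333% lower. At 28d 2 circRNAs were higher than at 1d, with 1.57% of all called, 1.27% higher and 0.300% lower. At 35d 2 were higher, with 2.17% of all called, 1.90% higher and 0.267% lower. At 120d 3 were higher than at 1d, with 6.10% of all called, 4.63% higher and 1.47% lower. At 180d against 1d 9 of the 82 were called, 7 higher and 2 lower, while 9.30% of all circRNAs were called, 5.90% higher and 3.40% lower. The median log2 fold change at 180d against 1d was 0.59 over the 82 and 0.20 over all. At 120d against 7d 5 were called, 4 higher and 1 lower, with 9.43% of all called, 6.37% higher and 3.07% lower. Likewise, at 180d against 7d 13 were called, 11 higher and 2 lower, with 12.6% of all called, 7.13% higher and 5.50% lower. A test of any difference among the 8 stages called 6 of the 82, with 8.97% of all called. Levels at 180d did not overlap with those at 1d for 20 higher and 5 lower circRNAs, which is 30.5% of the 82 against 29.4% of all.

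These 35 calls over pairs depended on depth and on single libraries. After thinning all libraries to the smallest total 27 of the 35 were lost, and 27 were lost among the 17 libraries of high valid share. For the 14 trend calls these losses were 10 and 12, and 7 were lost with the valid share as a covariate. Over all circRNAs thinning cut the calls at 180d from 279 to 143 against 1d and from 379 to 183 against 7d. Age trend calls over all circRNAs fell from 495 to 227 after thinning and to 117 among the 17 libraries. Thinning discards reads, and the 17 libraries hold only 1 each of 35d, 120d and 180d. Whether the calls of this set were lost more readily than others was not tested. Among the circRNAs of this set, the count at 180d against 1d was 5 without replicate 1 of 1d, replicate 2 of 1d or replicate 2 of 180d. At 180d against 7d it was 7 without replicate 2 of 7d and 8 without replicate 3 of 7d or replicate 1 of 180d, and at 120d against 7d it was 3 without replicate 2 of 7d or replicate 3 of 120d. At 120d against 1d it was 1 without replicate 2 of 1d or any of the 120d libraries. The count was 0 at 28d against 1d without replicate 1 of 1d or replicate 1 of 28d and 1 without replicate 2 of 1d, replicate 3 of 1d or replicate 2 of 28d. At 35d against 1d it was 1 without any of the 1d libraries, replicate 1 of 35d or replicate 2 of 35d, and at 21d against 1d it was 0 without any of the 6 libraries other than replicate 1 of 21d. The count of the test of any stage was 3 without replicate 2 of 28d. When clean reads set the depth, the split at 180d against 1d was 35 higher and 0 lower, and with the totals of the table it was 3 and 3.

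Of all pairs tested, 3 gave no call. At 7d against 1d edgeR called none of the 82 and 0% of all, 9 had an unadjusted p under 0.05, and DESeq2 called 0. At 14d against 1d edgeR called none, with 0.0667% of all called, and DESeq2 called 0 of the 82. Here 10 (12.2%) had an unadjusted edgeR p under 0.05, against 8.57% of all. At 180d against 120d edgeR called none of the 82 and 0% of all, and DESeq2 called 0 of the 82. Here 6 (7.32%) had an unadjusted edgeR p under 0.05, against 4.83% of all.

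**Figure D3:**
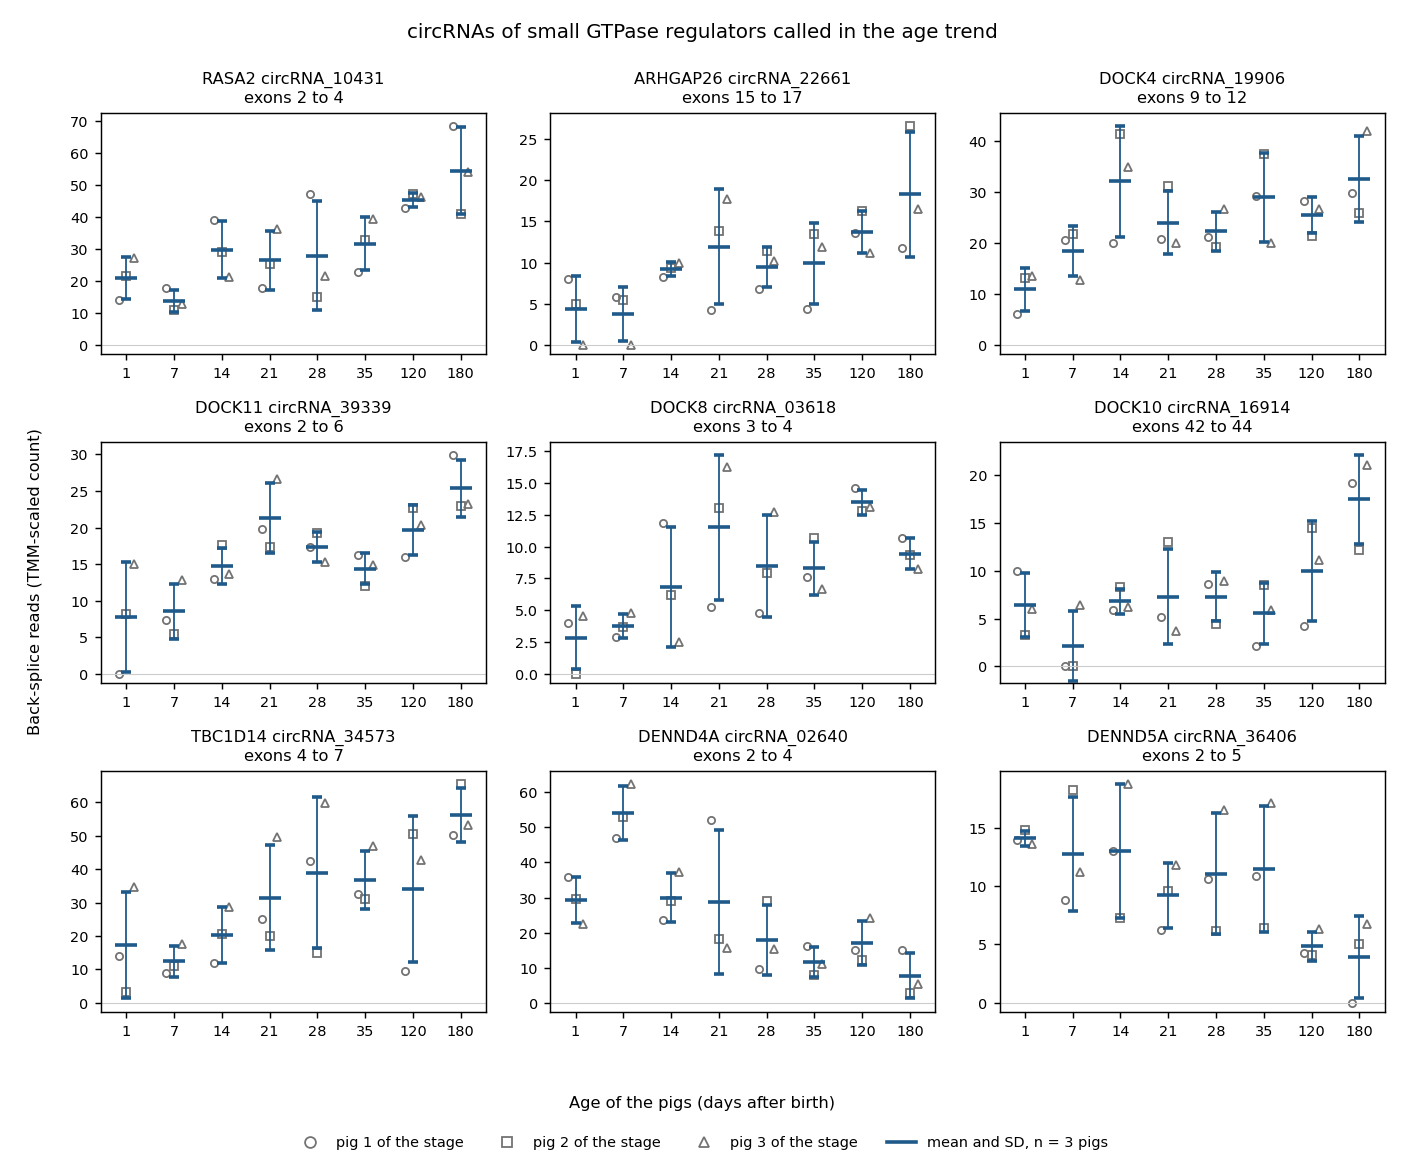
Level (TMM-scaled count, y axis) against stage (x axis) for 9 circRNAs; symbols are single pigs and bars the mean ± SD of 3 pigs. RASA2 circRNA_10431 has its highest levels at 180d and DENND4A circRNA_02640 its highest at 7d.

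Among the Ras GAPs, which switch Ras off, RASA2 circRNA_10431 was called in 6 tests. RASA2 restrains Ras downstream of the T cell receptor in human T cells. The circle holds exons 2 to 4 of 25 and 317 nt. Its mean level at the 8 stages was 20.8, 13.8, 29.7, 26.4, 27.9, 31.6, 45.3 and 54.4. The 3 spleens at 180d had levels of 68.3, 41.0 and 54.0, against 17.6, 10.9 and 12.8 at 7d. All 180d pigs were above all 7d pigs. The log2 fold change was 1.95 (SE 0.37, adjusted p = 1.04e-04).

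RASA2 circRNA_10431 had levels of 42.8, 47.0 and 46.01 at 120d, against the same 7d levels, with a log2 fold change of 1.69 (SE 0.36, adjusted p = 0.00105). Again no pig of either stage overlapped with the other. The slope with age was 0.22 (SE 0.04, adjusted p = 1.36e-04) and the test of any stage had an adjusted p of 8.52e-04. Each of these 4 calls held under every alternative run. Against 1d, where the levels were 13.9, 21.4 and 27.1, the log2 fold change was 1.35 at 180d (SE 0.35, adjusted p = 0.00670), and this call was lost on leaving out replicate 1 of 1d (adjusted p = 0.0590). The fold change at 120d against 1d was 1.09 (SE 0.34, adjusted p = 0.0394), and that call held under 4 of 16 alternatives, with adjusted p values up to 0.332 and without replicate 1 or 2 of 1d or any 120d replicate in the range of 0.0684 to 0.197.

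The second RASA2 circle, circRNA_10432, starts at the same exon 2 and runs on to exon 5. Its levels at 180d were 10.7, 12.9 and 26.3, and its stage means lay between 7.55 and 16.6. Its slope of 0.05 (SE 0.05, adjusted p = 0.605) did not pass the test. The share of the 2 RASA2 circles with age was tested as isoform usage and had an unadjusted p of 0.0205 and an adjusted p of 0.171. RASAL2 circRNA_38276, from a related Ras GAP, was scarce, with a mean level of 9.08 ± 0.50 at 180d and 2.33 ± 2.08 at 1d (SD, n = 3 each) and a slope of 0.25 (SE 0.12, adjusted p = 0.144).

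RALGAPA1 circRNA_33556, the Ral GAP circle, was abundant in every library. It averaged 74.8 ± 10.6 at 180d and 58.2 ± 4.17 at 1d (SD, n = 3 each), with a slope of 0.07 (SE 0.03, adjusted p = 0.101) that did not pass the test.

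The Rap GEFs load Rap, a GTPase of integrin adhesion. RAPGEF5 circRNA_37758 had levels of 6.40, 12.9 and 6.75 at 180d, from 6, 18 and 9 reads, and was listed at 0 in all 7d libraries. The floor for 7d was set at 7 reads over the 3 7d libraries, a 95% limit for 3 libraries listed at 0. It leaves out the spread between pigs. The mean 180d level of circRNA_37758 was 2.31 times that floor, and edgeR called the pair with an adjusted p of 0.00929. The call was lost among the 17 libraries of high valid share (adjusted p = 0.202) and after thinning all libraries to the smallest total (0.187). RAPGEF6 circRNA_22348, the most abundant of the group, had a mean level of 14.2 ± 1.43 at 180d and 9.46 ± 1.34 at 1d (SD, n = 3 each), with a slope of 0.11 (SE 0.05, adjusted p = 0.172).

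The GEFs of the DOCK type stood at a summed level of 102.1 ± 11.3 at 180d and 43.2 ± 9.74 at 1d (SD, n = 3 each), over 6 circRNAs of 5 genes. Of the 6, 4 rose in the age trend and none fell, while 10.7% of all 3000 circRNAs rose and 5.77% fell. The group was not tested as a set. DOCK4 activates Rac, and DOCK8, DOCK10 and DOCK11 activate Cdc42, largely in blood cells, and loss of DOCK8 in people causes a combined immunodeficiency. Of the 6 slopes 5 were above 0, and the other was that of DOCK1 circRNA_15033, of a Rac GEF used in engulfment, with a slope of -0.11 (SE 0.11, adjusted p = 0.553).

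DOCK11 circRNA_39339, on the X chromosome, had levels of 29.9, 23.0 and 23.3 at 180d, against 0, 8.23 and 15.1 at 1d. All 180d pigs were above all 1d pigs, and the log2 fold change was 1.59 (SE 0.47, adjusted p = 0.0186). Against 7d, with levels of 7.33, 5.47 and 12.8, it was 1.54 (SE 0.46, adjusted p = 0.0170), again without overlap. The slope of 0.20 (SE 0.05, adjusted p = 0.00502) held under 33 of 34 alternatives. The exception was the 17 libraries of high valid share, where the slope was 0.22. The call at 180d against 1d held under 10 of 16 alternatives and was lost on leaving out replicate 1 of 1d (adjusted p = 0.147), replicate 2 of 1d (0.0612) or replicate 1 of 180d (0.0565), with table totals (0.0523) and after thinning (0.112). It was also lost among the libraries of high valid share, with a log2 fold change of 1.80. The call against 7d held under 11 of 16 and was lost on leaving out replicate 1 of 7d (0.0688), replicate 2 of 7d (0.0852) or replicate 1 of 180d (0.0533) and after thinning (0.0969). Among the libraries of high valid share it was lost with a log2 fold change of 1.76.

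DOCK4 circRNA_19906 was the most abundant DOCK circle, with a mean level of 24.4. Its levels were 29.9, 25.9 and 42.0 at 180d, against 5.97, 13.2 and 13.6 at 1d, without overlap, with a log2 fold change of 1.54 (SE 0.39, adjusted p = 0.00634). The stage means were 10.9, 18.4, 32.1, 24.02, 22.4, 29.0, 25.5 and 32.6, so the level at 14d was already near that at 180d. The slope was 0.15 (SE 0.05, adjusted p = 0.0148). Leaving out replicate 1 of 1d ended both calls (adjusted p = 0.0556 for 180d against 1d and 0.0674 for the slope), and leaving out replicate 3 of 180d ended that of the slope (0.0521). Both were also lost after thinning (0.109 and 0.0641), and that of the slope with table totals (0.0722). Among the libraries of high valid share both were lost too, with a log2 fold change of 1.37 and a slope of 0.18. At 35d against 1d the log2 fold change was 1.37 (SE 0.40, adjusted p = 0.0432), a call that held under 4 of 16 alternatives, with adjusted p values up to 0.479 and without any 1d replicate, replicate 1 of 35d or replicate 2 of 35d in the range of 0.0551 to 0.237.

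DOCK8 circRNA_03618 was highest at 120d. Its levels there were 14.6, 12.8 and 13.1, against 3.98, 0 and 4.52 at 1d. The stages did not overlap, and the log2 fold change was 2.21 (SE 0.69, adjusted p = 0.0386). The slope was 0.25 (SE 0.08, adjusted p = 0.0164) and lost its call on leaving out replicate 2 of 1d (adjusted p = 0.0532), with the valid share as a covariate (0.0870) and after thinning (0.380). It also lost its call among the libraries of high valid share, where it was 0.31. The call at 120d against 1d held under 4 of 16 alternatives, with adjusted p values up to 0.586 and without replicate 1 of 1d, replicate 2 of 1d or any 120d replicate in the range of 0.0637 to 0.187.

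DOCK10 gave 2 circles from distant exons, exons 42 to 44 (circRNA_16914) and exons 9 to 15 (circRNA_16927). The levels of circRNA_16914 were 19.2, 12.2 and 21.0 at 180d, against 0, 0 and 6.39 at 7d. Those of circRNA_16927 were 16.0, 15.1 and 12.8 at 180d, against 0, 5.47 and 0 at 7d. For both circles every 180d pig lay above every 7d pig, with log2 fold changes of 2.95 (SE 0.78, adjusted p = 0.00578) and 3.07 (SE 0.79, adjusted p = 0.00445). The 1d means were 6.43 ± 3.35 and 11.08 ± 3.56 (SD, n = 3 each).

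Of these calls at 180d against 7d, that of circRNA_16914 was lost on leaving out replicate 1 of 7d (adjusted p = 0.0528), and both were lost after thinning (0.0603 and 0.180). Both were also lost among the libraries of high valid share, with log2 fold changes of 3.05 and 3.16. The slope of circRNA_16914 was 0.25 (SE 0.08, adjusted p = 0.0234), lost on leaving out replicate 1 of 180d (0.0666) or replicate 3 of 180d (0.0970), with table totals (0.0617), the valid share as a covariate (0.0749) and after thinning (0.0569). Among the libraries of high valid share it was 0.14 (0.560). circRNA_16927 was also higher at 120d than at 7d, with levels of 14.1, 4.06 and 20.3 at 120d and 1 pig inside the 7d range, a log2 fold change of 2.91 (SE 0.78, adjusted p = 0.00901), and a loss of the call without replicate 1 of 7d (0.0746), replicate 3 of 7d (0.0707) or replicate 3 of 120d (0.0651). After thinning this fold change of circRNA_16927 was 0.43 (adjusted p = 0.961), and among the libraries of high valid share 3.03 (0.0602).

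The ARHGEF and TIAM genes encode GEFs with a DH domain. Their 9 circRNAs of 6 genes summed to 87.0 ± 3.93 at 180d and 76.3 ± 20.1 at 1d (SD, n = 3 each). None of the 9 was called in the age trend, while 16.5% of all 3000 circRNAs were, and 5 of the 9 slopes were above 0. ARHGEF6 and ARHGEF7 encode the PIX exchange factors, which bind PAK kinases and act on Rac and Cdc42. ARHGEF6 circRNA_39508 had levels of 37.4, 20.8 and 15.8 at 180d, against 11.7, 3.65 and 7.98 at 7d. The groups did not overlap, and the log2 fold change was 1.58 (SE 0.46, adjusted p = 0.0153). The call was lost on leaving out replicate 2 of 7d (adjusted p = 0.0974) or replicate 1 of 180d (0.116) and after thinning (0.293).

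ARHGEF7 circRNA_07095 had its highest levels in the middle of the series. Its means were 9.01, 13.6, 18.03, 16.4, 12.9, 6.65, 6.73 and 6.92 at the 8 stages, with 14d levels of 20.1, 16.5 and 17.5. It passed the test of any stage with an adjusted p of 0.0473, and this call held under 10 of 34 alternatives, with adjusted p values up to 0.989. It was kept when any 1d library, replicate 3 of 7d, replicate 1 of 28d or replicate 3 of 120d was left out, and lost on leaving out any other single library (0.0512 to 0.106). ARHGEF40 circRNA_33818, the most abundant Dbl type circle, had levels of 35.2, 35.2 and 36.8 at 180d, against 17.9, 21.4 and 28.6 at 1d, and its slope of 0.08 (SE 0.04, adjusted p = 0.190) did not pass the test. TIAM2 circRNA_00136, of a Rac GEF, averaged 1.48 ± 1.5 at 180d and 4.30 ± 4.02 at 1d (SD, n = 3 each) and was called in no test.

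Of the 16 circRNAs of 9 ARHGAP genes, 1 rose in the age trend and none fell, while 10.7% of all 3000 circRNAs rose and 5.77% fell. The sum over the 16 came to 155.4 ± 29.6 at 180d and 142.8 ± 24 at 1d (SD, n = 3 each). The riser was ARHGAP26 circRNA_22661, of a GAP of the GRAF family that acts on Cdc42. Its levels were 11.7, 26.6 and 16.5 at 180d, against 7.96, 4.94 and 0 at 1d, and no pig of one stage reached the other. The log2 fold change was 2.18 (SE 0.65, adjusted p = 0.0218).

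Against 7d, with levels of 5.86, 5.47 and 0, the log2 fold change of ARHGAP26 circRNA_22661 at 180d was 2.27 (SE 0.65, adjusted p = 0.0129). Its slope was 0.29 (SE 0.07, adjusted p = 0.00251) and held under 33 of 34 alternatives, with the exception of the libraries of high valid share (a slope of 0.24). The call at 180d against 1d held under 8 of 16 and was lost on leaving out replicate 2 of 1d (adjusted p = 0.0559), replicate 3 of 1d (0.135) or replicate 2 of 180d (0.131), with table totals (0.0523), with the valid share (0.0753) or GC content (0.0577) as a covariate and after thinning (0.302). The call against 7d held under 11 of 16 and was lost on leaving out replicate 3 of 7d (0.0938) or replicate 2 of 180d (0.0876), with the valid share as a covariate (0.0557) and after thinning (0.0655). Both were also lost among the libraries of high valid share, with log2 fold changes of 1.47 against 1d and 1.59 against 7d.

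ARHGAP5 circRNA_33638 went the other way. Its levels were 5.34, 2.88 and 5.25 at 180d, against 19.9, 4.94 and 21.1 at 1d, and the groups overlapped through replicate 2 of 1d. The log2 fold change was -1.77 (SE 0.56, adjusted p = 0.0299), and the call was lost on leaving out replicate 1 of 1d (adjusted p = 0.136), replicate 3 of 1d (0.191), replicate 2 of 180d (0.136) or replicate 3 of 180d (0.0547). With clean reads as the depth it was -0.69 (adjusted p = 0.389) and among the libraries of high valid share -1.52 (0.386), both no longer called, while the thinned value was -5.975 and still called. The stage means between 14d and 120d lay between 14.6 and 17.2, so the 180d level, at 4.49 ± 1.40, and the 7d level, at 6.32 ± 2.34 (SD, n = 3 each), stood below the rest. It passed the test of any stage with an adjusted p of 0.0479, a call that held under 12 of 34 alternatives, with adjusted p values up to 0.512 and up to 0.226 when any one library was left out. circRNA_33639, which starts at the same exon 2 of ARHGAP5, averaged 6.32 ± 3.604 at 180d and 12.5 at 1d and was called in no test.

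Of the abundant ARHGAP circles, ARHGAP12 circRNA_05275, of a Rac GAP, averaged 37.2 ± 9.78 at 180d and 33.6 ± 5.71 at 1d, with a slope of 0.03 (SE 0.03, adjusted p = 0.641). ARHGAP10 circRNA_35530, of another GRAF family member, averaged 27.7 ± 13.8 at 180d and 22.9 ± 2.86 at 1d (SD, n = 3 each), with a slope of 0.02 (SE 0.04, adjusted p = 0.808). Neither passed the test.

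DENN domain proteins load Rab GTPases. DENND1A and DENND1B act on Rab35, which sends receptors back to the surface, DENND4 proteins act on Rab10, and DENND6A acts on Rab14. Their 21 circRNAs summed to 148.1 ± 4.59 at 180d and 124.9 ± 14.8 at 1d (SD, n = 3 each), with the highest sum, 202.0 ± 4.33, at 14d. In the age trend 2 of the 21 rose and 2 fell, while 10.7% of all 3000 circRNAs rose and 5.77% fell. The family held both fallers among the 82.

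DENND1B circRNAs share a few exon ends: 3 end at exon 15, 2 at exon 14 and 1 at exon 13, while 3 start at exon 10, 2 at exon 11 and 1 at exon 12. circRNA_04854, exons 12 to 15, was the most abundant. Its stage means were 6.29, 11.07, 25.5, 22.5, 25.4, 26.1, 23.96 and 20.8. The levels at 28d were 30.8, 26.3 and 19.0, against 5.97, 9.88 and 3.01 at 1d. Those at 180d were 16.0, 19.4 and 27.0. All pigs at 21d, 28d, 35d, 120d and 180d lay above all 1d pigs.

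The log2 fold changes of DENND1B circRNA_04854 against 1d were 1.84 at 21d (SE 0.48, adjusted p = 0.0358), 2.02 at 28d (SE 0.48, adjusted p = 0.00960), 2.03 at 35d (SE 0.47, adjusted p = 0.00832), 1.92 at 120d (SE 0.46, adjusted p = 0.00530) and 1.74 at 180d (SE 0.48, adjusted p = 0.0123). These 5 comparisons share the same 1d libraries. The slope was 0.19 (SE 0.06, adjusted p = 0.0146) and the test of any stage had an adjusted p of 0.0103. Without replicate 3 of 1d, the lowest library, each of the 7 calls was lost, with adjusted p values of 0.153 (21d), 0.0727 (28d), 0.0607 (35d), 0.0520 (120d), 0.0781 (180d), 0.0717 (slope) and 0.0751 (any stage). The 28d call was also lost on leaving out replicate 1 of 1d (0.0584) or replicate 1 of 28d (0.0582), the 180d call without replicate 3 of 180d (0.0647), the slope without replicate 1 of 1d (0.0534), and the 21d call without any of 5 of its 6 libraries (0.0587 to 0.282).

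The DENND1B circRNA_04854 calls were also lost under other settings. After thinning all 7 were lost: the log2 fold change against 1d was 0.82 at 180d (adjusted p = 0.598), 1.35 at 120d (0.281), and 1.45 to 1.67 at 21d, 28d and 35d (0.202 to 0.564), the slope was 0.12 (0.304), and the test of any stage had an adjusted p of 0.176. Among the libraries of high valid share the fold change was 1.31 at 180d (0.368) and 1.75 at 120d (0.116), and the calls at 21d (0.0974) and 35d (0.0818) were lost as well. With GC content as a covariate the calls at 21d (0.495), 35d (0.135) and 120d (0.0750) were lost, with table totals those at 21d (0.114) and of the slope (0.0547), and with DESeq2 size factors that at 21d (0.0785).

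circRNA_04863, exons 10 to 13 of DENND1B, shares neither end with circRNA_04854 and had a like course. Its levels were 23.1, 25.5 and 22.9 at 28d, against 5.97, 3.29 and 9.04 at 1d, without overlap. The log2 fold change was 1.93 (SE 0.49, adjusted p = 0.0200). At 180d the levels were 22.4, 14.4 and 17.3, also above all 1d pigs, with a log2 fold change of 1.51 (SE 0.50, adjusted p = 0.0404). The test of any stage had an adjusted p of 0.0321 and the slope of 0.16 (SE 0.06) an adjusted p of 0.0552.

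The 28d call of circRNA_04863 was lost on leaving out replicate 1 of 1d (adjusted p = 0.0778), replicate 2 of 1d (0.142), replicate 1 of 28d (0.0544) or replicate 2 of 28d (0.0551). The 180d call held under 6 of 16 alternatives and was lost on leaving out replicate 1 of 1d (0.104), replicate 2 of 1d (0.168), replicate 1 of 180d (0.115) or replicate 3 of 180d (0.0680), and under the others that ended it the adjusted p was 0.0541 to 0.151. The any stage call was lost on leaving out replicate 1 of 1d (0.0778), replicate 2 of 1d (0.104), replicate 2 of 7d (0.0598), replicate 3 of 7d (0.0535) or replicate 2 of 28d (0.0627), with DESeq2 size factors (0.0520), table totals (0.0751), among the libraries of high valid share (0.107) and after thinning (0.0541).

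The other 4 DENND1B circles (circRNA_04855, circRNA_04856, circRNA_04858 and circRNA_04859) were scarcer, with mean levels between 4.36 and 6.45, and were called in no test. Their slopes lay between 0.02 and 0.12. All 4 had their lowest mean at 1d, between 1.33 and 2.01, and 3 of them their highest at 14d. The shares of the 6 circles within the gene were 35.1% for circRNA_04854, 27.5% for circRNA_04863 and between 7.58% and 11.2% for the others, and isoform usage had an adjusted p of 0.901.

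**Figure D4:**
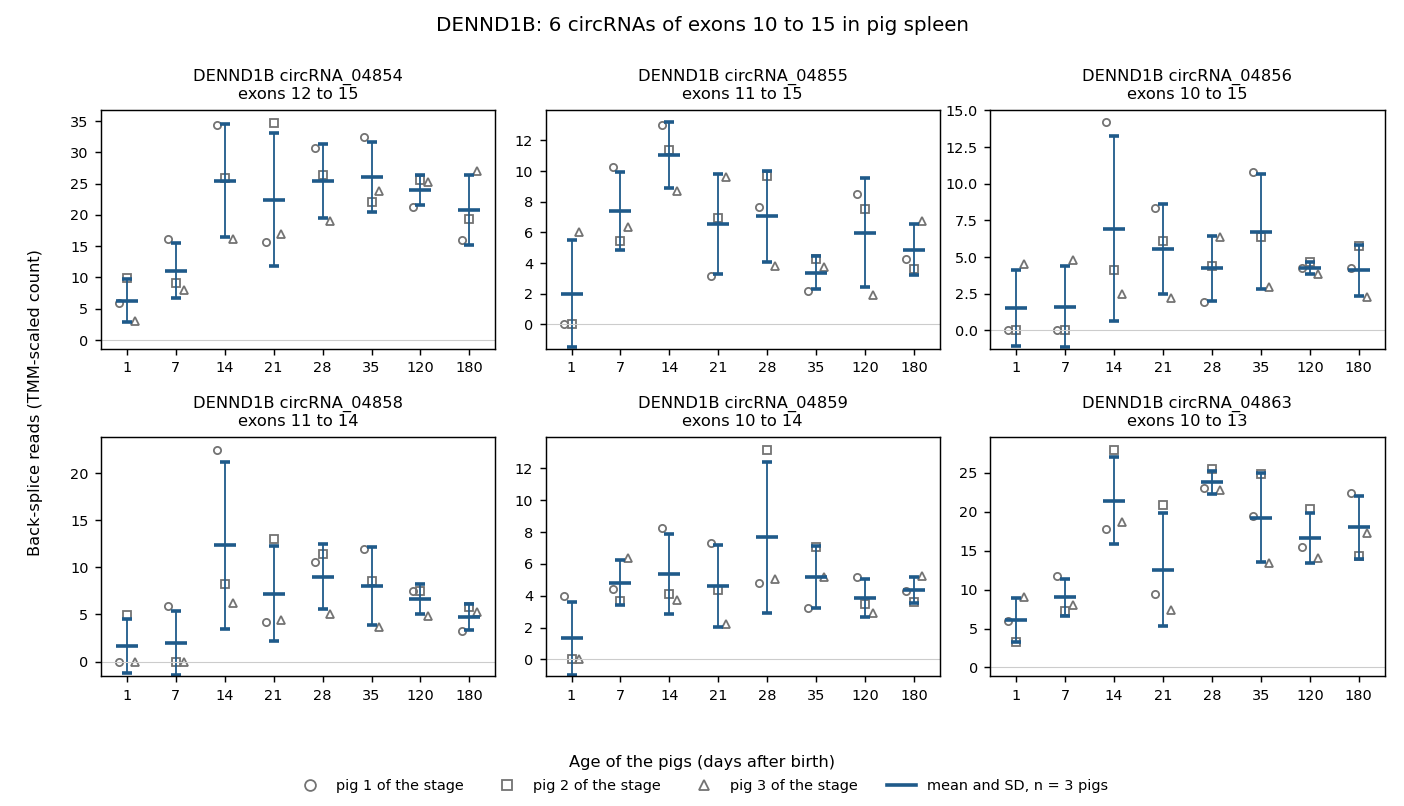
Level (TMM-scaled count, y axis) of the 6 DENND1B circRNAs at the 8 stages (x axis); symbols are single pigs and bars the mean ± SD of 3 pigs. The mean of circRNA_04854 is 6.29 at 1d and 25.5 at 14d, and all 6 circles have their lowest mean at 1d.

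DENND4A circRNA_02640, exons 2 to 4, fell with age. Its stage means were 29.4, 54.0, 30.0, 28.7, 17.9, 11.7, 17.2 and 7.69. The levels were 14.9, 2.88 and 5.25 at 180d, against 46.9, 52.9 and 62.3 at 7d. Every 7d pig was above every 180d pig by a wide margin, and the log2 fold change was -2.91 (SE 0.47, adjusted p = 2.59e-05), a call that held under all 16 alternatives, though among the libraries of high valid share the value was -1.86. Against 1d, with levels of 35.8, 29.6 and 22.6, it was -2.02 at 180d (SE 0.50, adjusted p = 0.00639), also without overlap and lost on leaving out replicate 2 of 180d (adjusted p = 0.0562). With clean reads as the depth it was -0.95 (adjusted p = 0.135) and among the libraries of high valid share -0.99 (0.429), neither of which was called.

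At 120d against 7d DENND4A circRNA_02640 had levels of 15.1, 12.2 and 24.2, without overlap, and a log2 fold change of -1.64 (SE 0.40, adjusted p = 0.00504). With clean reads as the depth that value was 0.05 (adjusted p = 0.917), so the fall at 120d is one relative to the other circRNAs of the table. With the valid share as a covariate it was -1.01 (adjusted p = 0.283), which was not called. The slope was -0.27 (SE 0.08, adjusted p = 0.0150), a call lost with clean reads (-0.03, adjusted p = 0.742), with the valid share as a covariate (0.145), among the libraries of high valid share (-0.17, adjusted p = 0.172) and after thinning (0.152). The test of any stage (adjusted p = 2.09e-04) held under all 34 alternatives.

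The other DENND4A circles were scarce. circRNA_02643, which starts at the same exon 2 and ends at exon 3, averaged 2.44 ± 2.21 at 180d and 6.70 ± 6.40 at 7d (SD, n = 3 each) and was called in no test. circRNA_02607, exons 27 to 33, had levels of 0, 1.44 and 0 at 180d, from 0, 2 and 0 reads, against 7.33, 7.29 and 7.98 at 7d, and was called lower (adjusted p = 0.0242). circRNA_02611 starts at the same exon 27, ends at exon 28 and went in the opposite direction against 7d. It was listed at 0 in all 7d libraries. Its levels were 3.20, 9.34 and 4.499 at 180d, with a mean 1.51 times the floor of 7 reads over the 7d libraries (adjusted p = 0.0310). At 120d they were 7.53, 4.64 and 4.36, with a mean 1.46 times that floor (adjusted p = 0.0404). The floor leaves out the spread between pigs.

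Those scarce calls rested on few reads. That of circRNA_02607 was lost on leaving out replicate 3 of 7d (adjusted p = 0.0601), replicate 1 of 180d (0.0704) or replicate 3 of 180d (0.0945), with clean reads (0.0822), the valid share as a covariate (0.0531), among the libraries of high valid share (0.220) and after thinning (0.193). Those of circRNA_02611 were lost on leaving out any one 7d library (0.0827 to 0.0889 for 180d and 0.103 to 0.105 for 120d), without replicate 2 of 180d (0.107) and without any one 120d library (0.0510 to 0.0938). Both were lost with the valid share as a covariate, among the libraries of high valid share and after thinning (0.0733 to 0.334 for 180d and 0.118 to 0.323 for 120d), and the 120d call also with DESeq2 size factors (0.0525) or table totals (0.0562).

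DENND4C circRNA_03334, exons 8 to 10, had levels of 18.1, 18.7 and 18 at 180d, against 5.97, 4.94 and 4.52 at 1d. The 3 pigs of each stage lay close together and far from the other stage, with a log2 fold change of 1.82 (SE 0.55, adjusted p = 0.0234). The slope was 0.18 (SE 0.06, adjusted p = 0.0220). The reads behind the 1d levels were 3 per library, and the call at 180d against 1d was lost on leaving out any one 1d library (adjusted p = 0.0523 to 0.0672) or replicate 2 of 180d (0.0580). The call of the slope was lost on leaving out replicate 2 of 180d (0.0559) or replicate 3 of 180d (0.0521). Table totals (0.0614 and 0.0819), the valid share as a covariate (0.0523 and 0.0552) and thinning (0.195 and 0.417) each ended both calls. So did the libraries of high valid share, with a log2 fold change of 1.77 and a slope of 0.17. DENND4C circRNA_03335, which ends at the same exon 10 but starts at exon 3, averaged 4.45 ± 1.91 at 180d and 6.15 ± 1.31 at 1d (SD, n = 3 each), with no call.

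DENND5A circRNA_36406, exons 2 to 5 of a Rab6-binding DENN protein, was the second faller. Its levels were 0, 5.03 and 6.75 at 180d, against 13.9, 14.8 and 13.6 at 1d, and all 1d pigs were above all 180d pigs. Even so, edgeR called it in no pair of stages, and the test of any stage had an adjusted p of 0.174. The slope was -0.23 (SE 0.07, adjusted p = 0.0137). That call was lost among the libraries of high valid share, where the slope was -0.23, and with clean reads as the depth, where it was -2.06e-04 (adjusted p = 0.999).

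DENND6A gave 4 circles. circRNA_09841 had levels of 13.9, 23.0 and 9.75 at 180d, against 5.86, 0 and 3.19 at 7d, without overlap, and a log2 fold change of 2.25 (SE 0.68, adjusted p = 0.0176). circRNA_09863 had levels of 6.12, 11.02 and 8.23 at 120d, against 0, 0 and 3.19 at 7d, without overlap, and a log2 fold change of 2.84 (SE 0.95, adjusted p = 0.0434). For both the 7d level was the lowest of the 8 stages and the 1d mean was near 10, at 10.2 ± 4.58 and 10.2 ± 5.66 (SD, n = 3 each). The first call was lost on leaving out replicate 2 of 7d (0.102), replicate 3 of 7d (0.0531) or replicate 2 of 180d (0.117), with the valid share as a covariate (0.0518) and after thinning (0.143). It was also lost among the libraries of high valid share, with a log2 fold change of 2.06. The second held under 4 of 16 alternatives and was lost on leaving out replicate 1 of 7d (0.161), replicate 2 of 7d (0.147) or any one 120d library (0.05003 to 0.110). Among the libraries of high valid share it was lost with a log2 fold change of 2.385, and after thinning the value was 4.32 (adjusted p = 0.189).

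TBC domain proteins switch Rab GTPases off, with the exception of TBC1D23 described below. The 18 circRNAs of 8 TBC1D genes summed to 325.8 ± 35.5 at 180d and 224.5 ± 74.5 at 1d (SD, n = 3 each). In the age trend 2 rose and none fell, while 10.7% of all 3000 circRNAs rose and 5.77% fell. Of the 18 slopes 14 were above 0. TBC1D14, which acts on Rab11 traffic and autophagy, gave 2 circles. The larger share fell to circRNA_34573, exons 4 to 7, which had levels of 50.2, 65.4 and 53.2 at 180d, against 13.9, 3.29 and 34.7 at 1d. The groups did not overlap, but the 1d pigs spread widely, as did the 120d pigs, at 9.42, 50.5 and 42.6. No pair of stages was called for this circle. The slope was 0.24 (SE 0.07, adjusted p = 0.0257), a call lost on leaving out replicate 2 of 1d (adjusted p = 0.0616) or replicate 2 of 180d (0.0646), with table totals (0.0586), the valid share as a covariate (0.134) and after thinning (0.210). It was also lost among the libraries of high valid share, with a slope of 0.16.

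TBC1D23 circRNA_11817 had levels of 4.27, 11.5 and 9.75 at 180d, against 0, 4.94 and 0 at 1d, with 1 pig of each stage overlapping. TBC1D23 is a golgin adaptor whose TBC domain lacks GAP activity. The slope was 0.35 (SE 0.11, adjusted p = 0.0215), lost on leaving out replicate 2 of 180d (adjusted p = 0.0540). After thinning it was 0.12 (adjusted p = 0.801), among the libraries of high valid share 0.24 (0.495) and with the valid share as a covariate 0.29 (0.133), none of which was called. Its 2 companions, circRNA_11818 and circRNA_11821, which share an exon end with it or with each other, had slopes of 0.20 and 0.14 that did not pass (adjusted p = 0.130 and 0.229).

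TBC1D8 held 3 circles. The single-exon circRNA_23935, exon 5, had levels of 23.5, 17.97 and 18.8 at 180d, against 10.3, 0 and 6.39 at 7d, without overlap. Its log2 fold change was 1.75 (SE 0.58, adjusted p = 0.0349), a call that held under 7 of 16 alternatives and was lost on leaving out replicate 2 of 7d (0.181), replicate 3 of 7d (0.0857) or any one 180d library (0.0536 to 0.0829), with table totals (0.0645), the DESeq2 test (0.0545) and after thinning (0.0758). The call was also lost among the libraries of high valid share, with a log2 fold change of 1.97. circRNA_23932, exons 3 to 5, which ends at the same exon, averaged 60.2 ± 5.45 at 180d and 36.8 ± 14.9 at 1d, with a slope of 0.08 (SE 0.03, adjusted p = 0.0807). circRNA_23937, exons 16 and 17, the most abundant circle of the 82, averaged 73.3 ± 16.0 at 180d and 57.5 ± 10.47 at 1d (SD, n = 3 each), with a slope of 0.05 (SE 0.03, adjusted p = 0.281).

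Several Rab GAP circles had no call. TBC1D22A circRNA_27612 averaged 23.2 ± 2.097 at 180d and 42.6 ± 5.94 at 120d (SD, n = 3 each), the lowest and the highest of its stage means, and its slope was -0.03 (SE 0.04, adjusted p = 0.726). The 3 circles of TBC1D1, a Rab GAP of glucose transporter traffic, had slopes of 0.16, 0.09 and 0.13 with adjusted p values of 0.199 to 0.3996. TBC1D5 circRNA_08974, of a Rab7 GAP, averaged 2.07 ± 1.79 at 180d and 9.21 ± 5.08 at 1d (SD, n = 3 each), with a slope of -0.23 (SE 0.10, adjusted p = 0.109).

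Arf regulators act on Golgi and endosome coats. ARFGEF1 circRNA_26341, of an Arf GEF of the trans-Golgi network, had levels of 16.0, 5.75 and 8.999 at 180d, against 0, 0 and 3.19 at 7d. The groups did not overlap, and the log2 fold change was 3.08 (SE 1.00, adjusted p = 0.0286). The call was lost on leaving out replicate 1 of 7d (adjusted p = 0.124), replicate 2 of 7d (0.106) or replicate 1 of 180d (0.106) and after thinning, where the value was 4.82 (0.116). Among the libraries of high valid share it was lost with a log2 fold change of 3.71. The slope of 0.26 (SE 0.09, adjusted p = 0.0446) held under 19 of 34 alternatives. Its call was lost on leaving out replicate 1 or 3 of 1d, any one 7d library, replicate 3 of 21d, replicate 1 or 2 of 120d, or replicate 1 or 3 of 180d (0.0503 to 0.120), and under the 5 other alternatives that ended it the adjusted p was 0.0572 to 0.324.

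ARFGAP3 circRNA_27657, of a GAP of Golgi coats, had levels of 14.9, 4.31 and 8.999 at 180d, against 3.98, 0 and 0 at 1d, without overlap. No pair of stages was called for this circle. The slope was 0.32 (SE 0.11, adjusted p = 0.0346), a call lost on leaving out replicate 2 of 1d (adjusted p = 0.0807), replicate 3 of 1d (0.0799), replicate 2 of 7d (0.0509), replicate 2 of 120d (0.0589), replicate 3 of 120d (0.0637) or replicate 1 of 180d (0.0723), with table totals (0.0744) and after thinning (0.362). It was also lost among the libraries of high valid share, with a slope of 0.40. ARFGAP1 circRNA_19264 averaged 8.12 ± 0.59 at 180d and 5.31 ± 9.20 at 1d (SD, n = 3 each), with a slope of 0.22 (SE 0.09, adjusted p = 0.0866). The circles of ASAP1 and ASAP2, Arf GAPs of adhesion sites, had slopes of 0.13 and 0.11 and no call.

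When the circRNAs of each host gene were summed, 15 of the 46 genes passed the age trend, 13 higher and 2 lower, while 23.7% of 1670 host genes passed, 15.9% higher and 7.78% lower. The median slope was 0.10 over the 46 and 0.03 over all, and 38 of the 46 slopes were above 0. With table totals as the depth, 5 sums rose and 4 fell, with DESeq2 size factors 12 and 2, and with clean reads as the depth 40 and 0. For all 1670 host genes the same splits were 167 and 216, 227 and 172, and 1216 and 5. Beside genes with a single circle, the sums of RASA2 (slope 0.16, adjusted p = 5.66e-04), TBC1D23 (0.22, 0.00134), DOCK10 (0.17, 0.0164), DENND4C (0.13, 0.0187), TBC1D14 (0.18, 0.0201), DENND1B (0.16, 0.0282) and TBC1D8 (0.07, 0.0340) rose and that of DENND4A fell (-0.19, 0.00335).

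The sum of TBC1D23 averaged 27.4 ± 2.89 at 180d and 8.94 ± 5.09 at 1d, and that of RASA2 71.0 ± 14.9 at 180d and 34.3 ± 10.3 at 1d (SD, n = 3 each). No single library ended these calls, but among the libraries of high valid share both were lost, with slopes of 0.13 for RASA2 and 0.19 for TBC1D23. That of TBC1D23 was also lost after thinning (adjusted p = 0.1999). Of the 15 calls of sums, 13 were lost among the libraries of high valid share and 10 after thinning. Over all host genes the calls fell from 396 to 128 and 215 in the same settings. The DENND1B sum averaged 56.9 ± 6.02 at 180d and 18.9 ± 3.40 at 1d (SD, n = 3 each), was highest at 14d with 82.6 ± 27.0, and lost its call without any one 1d library (adjusted p = 0.0900 to 0.104) or replicate 2 of 7d (0.0508). That of DENND4A was 0.05 where clean reads set the depth (adjusted p = 0.3999). Other sums lost their calls without a single library: DOCK10 and DENND4C without replicate 3 of 180d (0.0508 and 0.0599), DOCK4 without replicate 1 of 1d (0.0521), TBC1D14 without replicate 2 of 1d (0.0599), and TBC1D8 without replicate 1 or 2 of 1d, replicate 2 or 3 of 7d, replicate 3 of 120d or replicate 1 of 180d (0.0513 to 0.116). Those of ARFGAP3 and ARFGEF1 were lost on leaving out 4 and 6 single libraries.

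**Figure D5:**
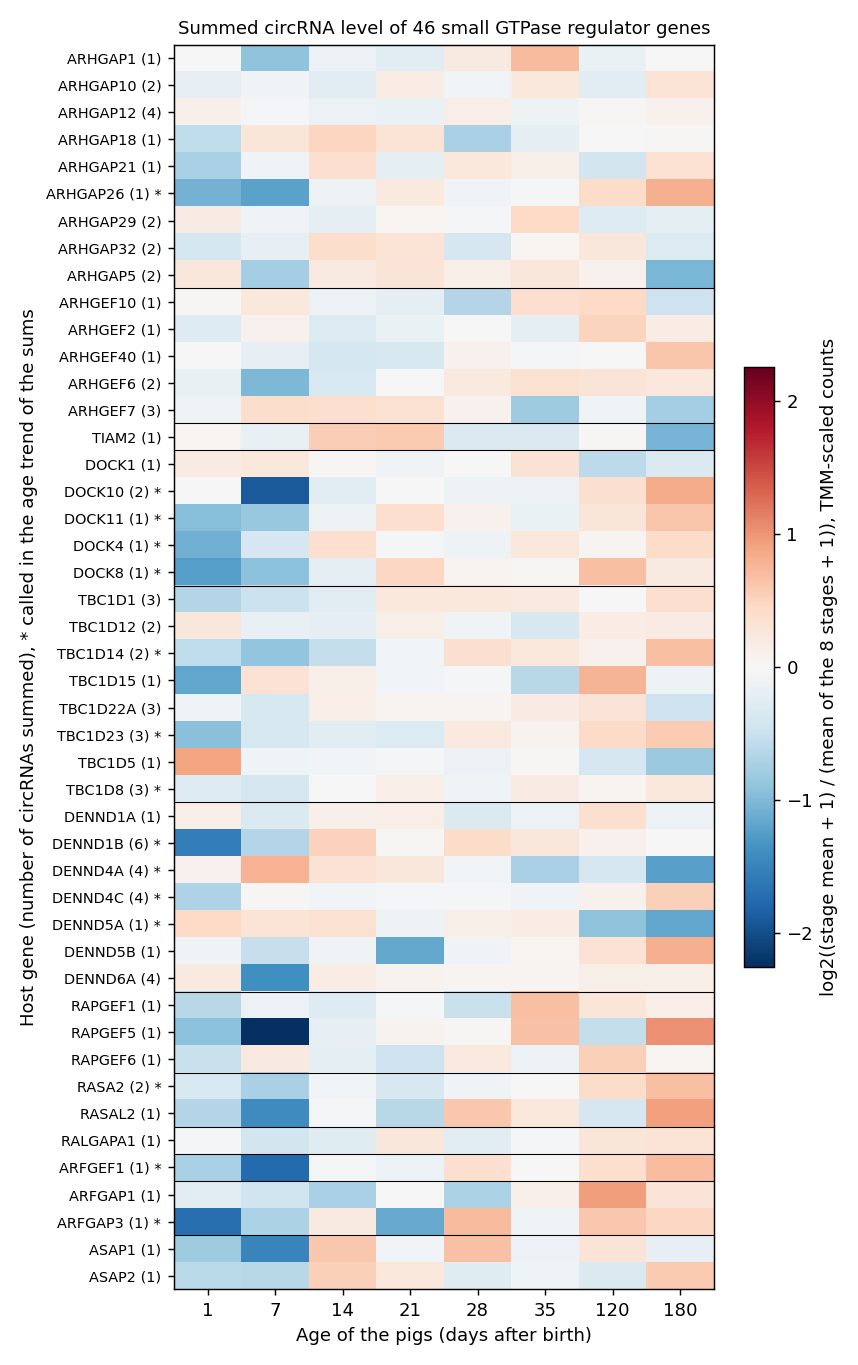
Heat map of the 46 host gene sums (rows) at the 8 stages (columns, 1d at the left); colour is log2 of (stage mean + 1) over (mean of 8 stages + 1), and an asterisk marks host genes called in the age trend. DENND4A is high at 7d and low at 180d, whereas RASA2, DOCK11 and TBC1D23 are highest at 120d or 180d.

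Isoform usage asks whether the circles of one gene change their shares with age. None of the 19 host genes with 2 or more circles passed in edgeR, with 2.94% of 612 genes called. Of the 19, 5 (26.3%) had an unadjusted p under 0.05, against 18.5% of the 612. The lowest were TBC1D14 (adjusted p = 0.0943), ARHGAP12 (0.128), DENND4A (0.138), RASA2 (0.171) and ARHGAP32 (0.223). TBC1D14 passed with library GC content as a covariate (0.0383) and without replicate 1 of 120d (0.0410), the pig with the low level of circRNA_34573.

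The GTPases themselves and their effectors were read from the same table by host gene. Of 20 measured small GTPase genes 3 rose with age and none fell, a share of risers close to the 15.9% of all 1670 host genes. RRAS2, a Ras relative, averaged 15.7 at 180d and 4.25 at 1d, RAB14, the partner of DENND6A, 59.9 at 180d and 34.2 at 1d, and RAB21 12.5 at 180d and 3.75 at 1d. Of 23 effector genes 5 rose and 4 fell, both larger shares than the 15.9% and 7.78% of all 1670 host genes. The kinase ROCK1 rose (slope 0.15, adjusted p = 8.70e-05) and the Ras effectors PLCE1 (-0.25, 1.16e-04) and AFDN (-0.18, 2.36e-04) fell. Of 35 further GTPase regulators with other names 5 rose, close to the 15.9% of all host genes. Another 5 fell, a larger share than the 7.78% of all host genes. Among them the myosins with a GAP domain MYO9B (0.37, 2.68e-06) and MYO9A (0.22, 4.96e-06) rose, and the Arf GEF PSD3 (-0.21, 1.08e-04) fell. None of these lists was tested as a set.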

How the data were processed

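Back-splice junction reads were counted in 24 spleen libraries, 1 per pig. The deposited table holds raw counts of 3000 circRNAs made by the authors, who per their methods aligned reads with BWA to the pig genome Sscrofa11.1 and took junctions flanked by GT-AG from CIRI2; the submitters' processing notes name FastQC, cutadapt and TopHat2. The labels name an RNeasy extraction and a TruSeq stranded kit with Ribo-Zero Gold, and the methods name TRIZOL, RNase R and an NEBNext directional kit; which holds is not settled, and RNase R would enrich circles. No count of 1 occurs in the table, and totals of 16273 to 87867 cover only these circRNAs.

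Host genes were assigned in Python 3.11.15 (pandas 2.3.3, numpy 2.4.6) from the RefSeq annotation of Sscrofa11.1. Counts were tested in R 4.3.3 with edgeR 4.0.16 (TMM, quasi-likelihood F test with robust fits, no filter, limma 3.58.1) over all 3000 circRNAs and all libraries, with Benjamini-Hochberg adjustment: pairs of stages, any stage, a slope on log2 age in days, host gene sums and isoform usage (diffSpliceDGE). The common biological coefficient of variation was 0.30. Nothing states that pigs of one stage came from different litters. The lowest chi-square per degree of freedom between 2 pigs of a stage was 1.55, so no library was a duplicate.

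Alternatives were DESeq2 1.42.0 size factors and test, table totals, clean reads as depth, filterByExpr, thinning to the smallest library, valid share and GC as covariates, the libraries with a valid share of at least 0.96, a replicate block and leaving out each library. Clean reads, valid shares and GC came from the study's sequencing overview. The fit was tested on simulated data. Figures used matplotlib 3.10.9. Named circRNAs were those called in a test, the 10 most abundant, the most abundant of each name prefix, host genes with 3 or more circRNAs or called in the tests of sums or isoforms, and up to 4 genes of each further list by smallest p. The members and lists were chosen with earlier results of these data known.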

Additional observations from a re-analysis of the deposited data

How the results depend on the processing

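Values are numbers of the 82 circRNAs called unless stated. With clean reads as the depth, 4 were called for 14d against 1d, 21 for 21d, then 11 for 28d, 30 for 35d, next 62 for 120d and finally 35 for 180d against 1d, 57 for 120d and 34 for 180d against 7d, 3 at 180d against 120d, 51 in the test of any stage, 63 in the age trend and 40 of the host sums. Of all 3000 circRNAs, clean reads called 85 for 14d, 628 for 21d, 431 for 28d and 920 for 35d against 1d. They called 1972 for 120d and 1009 for 180d against 1d, and 1829 and 994 against 7d. The numbers were 43 at 180d against 120d and 1515 for any stage, with 1221 of the 1670 host sums. With DESeq2 size factors as with table totals, 0 were called at 21d, 1 at 35d and 1 at 120d against 1d and 3 at 120d against 7d, and with table totals 9 in the age trend and 9 of the host sums. The DESeq2 test called 1 at 35d against 1d and 12 for any stage, and filterByExpr 5 at 120d against 1d. The whole-table numbers for these were 67, 443 and 175. With the valid share as a covariate 1 was called at 35d and 1 at 120d against 1d, 2 at 120d against 7d and 7 in the age trend, and with GC content 0 at 21d, 35d and 120d against 1d and 1 for isoform usage. For the same tests the whole table had 17, 79, 125 and 265 calls with the valid share. With GC content it had 0, 10 and 100 calls, and 25 genes for isoform usage. Among the 17 libraries of high valid share 0 were called at 21d, 35d and 120d and 2 at 180d against 1d, for 120d and 180d against 7d 2 and 4, 3 for any stage, 3 in the age trend and 2 of the host sums. After thinning 0 were called for 21d and 35d, 1 each for 28d and 120d and 3 for 180d against 1d, then 3 for 120d and 2 for 180d against 7d, 4 in the age trend and 5 of the host sums. Thinned, the whole table had 4 calls for 21d, 30 for 28d and 29 for 35d against 1d. It had 73 for 120d and 143 for 180d against 1d, 102 and 183 against 7d, and 215 host sums. Over all 3000 circRNAs the age trend called 495, against 1943 with clean reads, 265 with the valid share as a covariate, 117 among the 17 libraries and 227 after thinning.

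Leaving out 1 library at a time gave 0 to 1 calls for 14d and 21d, and 0 to 2 for 28d against 1d. It gave 1 to 2 for 35d, 1 to 4 for 120d and, for 180d against 1d, 5 to 10. Against 7d it gave 3 to 6 for 120d and 7 to 12 for 180d, with 3 to 8 for any stage, 10 to 15 in the age trend, 12 to 16 of the host sums and 0 to 1 for isoform usage. No call arose at 7d against 1d or 180d against 120d. With clean reads 2 values changed sign: DENND4A circRNA_02640 at 120d against 7d (0.0507) and the slope of the DENND4A sum (0.05124). Of the correlations between same-numbered pigs 1 of 84 was over 0.1, with a mean of 0.006, which cannot exclude a shared litter or run. All libraries with a valid share under 0.96 were replicates 2 or 3, so the number and the valid share are linked. A replicate block called 10 at 180d against 1d, 14 at 180d against 7d, 14 in the age trend and 4 for any stage. The causes of these changes were not tested. Levels from a few reads, such as those of DENND4A circRNA_02607 and circRNA_02611, RAPGEF5 circRNA_37758 and the early levels of DENND4C circRNA_03334, are limited by depth.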
